A study of Mus musculus with 35 samples.

Results

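The 5 protein-coding genes Glyatl3, Bdh2, Enpp3, Optn and Nptx2 had lower RNA in Dnmt1 KO than in WT mouse embryonic stem cells (ESCs) on days 3, 9, 11, 17 and 25 after deletion. They are 5 of the 26127 rows of the gene table. They were chosen by the deposited RPKM values themselves, for lower levels in KO on each of days 3, 9, 11, 17 and 25, so their KO minus WT differences on those days are given as a description without a test. To qualify, a gene also had to pass limma (adjusted p below 0.05) for the mean over those days, and a filter on average level. Ranked by the mean log2 difference over those days among the 271 genes that qualified, Glyatl3, Bdh2, Enpp3 and Optn held places 4, 6, 7 and 8. The last of them, Optn, stood at -1.01, and the genes just outside, Slc1a3 and Naa11, stood at -0.94 each. Nptx2 held place 96 in that order, at -0.47, and place 3 of 9 when the day 6 libraries were also required to be lower as labelled. There it stood at -0.40, between Epha2 at -0.41 and Aldh18a1 at -0.37.

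By the methods the cells were Dnmt1 loxP/loxP ESCs, grown in serum and LIF with or without feeder cells, and tamoxifen (4OHT) switched on the Cre that deleted Dnmt1 in the KO groups. The labels call the controls wild type, and whether these received tamoxifen is not stated in the sources used here. Total RNA was sequenced at 8 days (0, 1, 3, 6, 9, 11, 17 and 25) with 2 WT and 2 KO libraries a day and 3 of each at day 1, and the Dicer KO group was 1 library of an ESC line with a constitutive CRISPR/Cas9 deletion of Dicer in the same floxed background, with Dnmt1 not deleted. The labels name the background strain E14, whereas the methods describe the Dnmt1 loxP/loxP line as C57BL/6.

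DNMT1 is the maintenance methyltransferase that copies CpG methylation onto the new DNA strand at replication, so its loss dilutes methylation as cells divide. The 5 genes belong to different pathways. Glyatl3 is a member of the glycine N-acyltransferase family, enzymes that join acyl groups to glycine. Bdh2 encodes a cytosolic dehydrogenase of the short-chain family that has been linked to beta-hydroxybutyrate use and to iron handling. Enpp3 encodes a cell-surface enzyme that hydrolyses extracellular nucleotides. Optn encodes optineurin, a receptor of selective autophagy that binds ubiquitin and LC3 proteins and works with the kinase TBK1. Nptx2 encodes a secreted neuronal pentraxin that gathers AMPA-type glutamate receptors at synapses. None of them is a marker of ESCs.

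Because the deleted enzyme acts on CG pairs, the promoters are shown first, with every CG pair in capitals. The sequences run from 250 bases before to 50 bases after the start of the gene, on the strand of the gene, and come from RefSeq on build GRCm38.p6, a later build than that of the expression table. The table matched 4 of the 5 genes, all except Nptx2. The window of Glyatl3 is chr17:40914301-40914600 on the minus strand, that of Enpp3 chr10:24836146-24836445 on the minus strand, that of Bdh2 chr3:135280971-135281270 on the plus strand and that of Optn chr2:5064068-5064367 on the minus strand.
Glyatl3: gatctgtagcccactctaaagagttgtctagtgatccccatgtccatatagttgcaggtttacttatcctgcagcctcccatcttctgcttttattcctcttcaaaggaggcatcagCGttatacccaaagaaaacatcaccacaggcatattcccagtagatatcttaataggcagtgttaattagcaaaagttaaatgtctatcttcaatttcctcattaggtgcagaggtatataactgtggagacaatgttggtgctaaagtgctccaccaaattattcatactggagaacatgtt
Enpp3: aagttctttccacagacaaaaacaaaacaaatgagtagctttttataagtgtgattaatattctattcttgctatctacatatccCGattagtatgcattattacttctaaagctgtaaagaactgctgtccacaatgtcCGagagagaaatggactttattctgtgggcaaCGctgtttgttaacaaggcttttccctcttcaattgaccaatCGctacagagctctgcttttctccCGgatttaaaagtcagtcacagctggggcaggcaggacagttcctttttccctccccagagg
Bdh2: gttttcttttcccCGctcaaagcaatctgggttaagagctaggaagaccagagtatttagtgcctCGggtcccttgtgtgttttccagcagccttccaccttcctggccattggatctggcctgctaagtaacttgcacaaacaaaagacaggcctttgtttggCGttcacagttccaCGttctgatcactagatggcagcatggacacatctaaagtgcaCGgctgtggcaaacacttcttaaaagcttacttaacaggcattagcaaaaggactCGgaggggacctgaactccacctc
Optn: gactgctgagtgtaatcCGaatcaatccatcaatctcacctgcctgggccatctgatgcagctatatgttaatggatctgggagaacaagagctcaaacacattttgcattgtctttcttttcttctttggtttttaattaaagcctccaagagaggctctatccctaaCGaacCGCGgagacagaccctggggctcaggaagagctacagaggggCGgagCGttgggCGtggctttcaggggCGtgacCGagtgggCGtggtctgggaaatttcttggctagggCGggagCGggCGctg

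The promoter of Glyatl3 held 1 CG pair in its 300 bases, and 14.1% of the 32851 promoters of the RefSeq table held as few. Enpp3 had 5 pairs (43.6% of promoters held that number or fewer), Bdh2 had 6 (47.9%) and Optn had 13 (63.7%). The median promoter held 7, with quartiles at 3 and 20. The 4 promoters therefore spread over the lower and middle range of CG content, and Optn was the one above the median. Methylation of these windows was not analysed here, and the letters are a description of the sequence only.

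**Figure D1:**
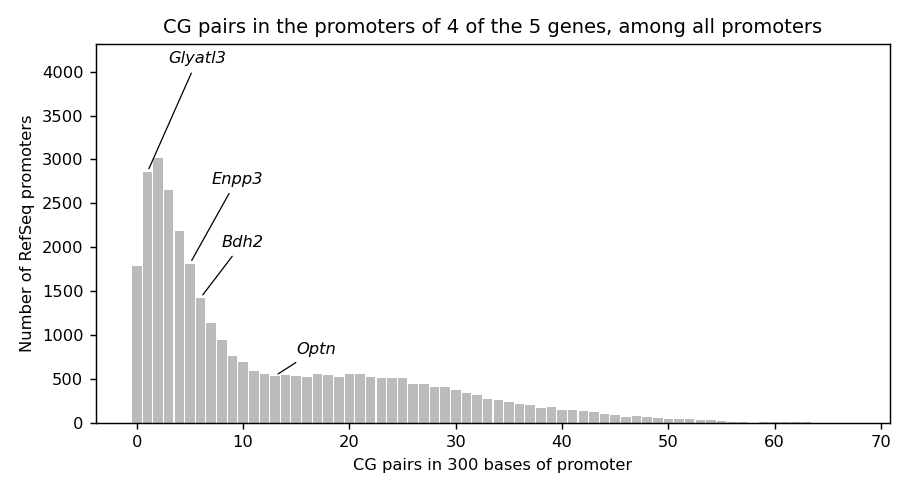
Number of RefSeq promoters (vertical axis) by the number of CG pairs in 300 bases (horizontal axis), with the bars of the 4 matched genes marked. Glyatl3, Enpp3 and Bdh2 sit at 1, 5 and 6 pairs, below the median of 7, and Optn sits at 13.

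The table gives RPKM, reads per kilobase of exon scaled to the reads of the library. In each library 5.11 to 17.6 M of the reads (M, mega-reads) lay in exons of genes. That was 20.3% to 22.0% of all reads in 20 libraries (days 0, 3, 6 and 9 and the first 2 pairs of day 1), and 44.2% to 48.9% in 15 libraries (the third day 1 pair, days 11, 17 and 25, and Dicer KO). In the third pair the median gene read 2.07 times its level in the first 2 pairs, in WT and in KO. RPKM levels are therefore compared only within each of these sets, and KO is compared with WT of the same day. Dnmt1 checked the labels. At day 0 it read 18.3 RPKM in WT and 18.6 RPKM in KO. On days 1, 3, 9, 11, 17 and 25 every library labelled KO read lower than every library labelled WT, at 12.7% to 25.24% of the WT mean. At day 6 it went against the labels, with 3.31 ± 0.133 RPKM (SD, n = 2) in the libraries labelled WT and 20.3 ± 0.195 RPKM (SD, n = 2) in those labelled KO, so day 6 is given as labelled and apart from the other days. All 10 ESC markers were detected in every group. At day 9, 6 of them read lower in every KO library than in every WT library and 3 higher, and at day 25, 7 read higher and 2 lower (1011 to 1036 RPKM in sum in WT, 1288 to 1299 RPKM in KO). Fibroblast markers, which feeder cells express, summed to 1.08 to 3.02 RPKM in WT and KO of days 11, 17 and 25. They were higher in KO at day 3 (12.5 to 14.4 RPKM in WT, 23.8 to 24.7 RPKM in KO, 9 of 11 markers above WT) and at day 9 (18.3 to 21.6 and 44.2 to 50.7 RPKM, 10 of 11). Primitive endoderm markers were higher in KO at day 9 (7 of 7, 3.01 to 3.14 RPKM in WT, 6.54 to 6.72 RPKM in KO). Of lists of other cell types, neural markers summed to 11.3 to 11.7 RPKM in WT of day 25 and 21.3 to 24.8 RPKM in KO, and trophoblast markers to 1.5 to 1.79 RPKM in WT of day 17 and 3.89 to 4.94 RPKM in KO. The part of these cells in the differences between genotypes was not tested.

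Before deletion and on the first day after it, the 5 genes showed no difference that passed the test. At day 0, 3 of the 5 (Enpp3, Optn and Nptx2) had both KO libraries below both WT libraries, against 16.2% of the 11615 genes tested. Their log2 differences, on the log2(RPKM + 0.1) scale used throughout, were -0.15, -0.11 and -0.15. Glyatl3 and Bdh2 stood at 0.10 and 0.04. At day 1 none of the 5 separated the genotypes, against a background of 0.241% of genes lower. The third pair read higher in both genotypes, so few genes could have every KO library below every WT library. This lack of separation therefore says little about day 1. The day 1 differences lay between -0.14 (Glyatl3) and -0.01 (Optn). All 10 adjusted p values were 1 (limma, Benjamini-Hochberg over all genes tested). The 95% intervals were wide for Glyatl3, from -1.17 to 1.38 at day 0, and narrower for Optn, from -0.44 to 0.23. With the third day 1 pair left out of the fit they were -0.55 to 0.76 and -0.36 to 0.15. Of all genes, limma called 0 at day 0, where 9 had an unadjusted p below 0.05 and voom on recovered reads called 0, and at day 1 it called 1, Dnmt1 (0.00861%). With same-numbered WT and KO libraries taken as pairs (the replicate block), 2 genes were called at day 1, again none of the 5.

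After day 1 all 5 genes had both KO libraries below both WT libraries on each of days 3, 9, 11, 17 and 25. The background for 1 day was 28.5%, 32.8%, 20.2%, 22.0% and 33.4% of genes in that order, and 199 genes (1.71%) did so on all 5 days. This count is fixed by how the genes were picked, and nothing is read from it. At day 3 KO held between 53.1% (Glyatl3) and 93.5% (Nptx2) of the WT mean. The day 3 libraries held 5 to 30 reads of Glyatl3 and 15 to 40 reads of Bdh2. With 1 library of day 3 left out, the log2 difference of Glyatl3 ranged from -1.49 to -0.24 and that of Bdh2 from -1.0 to -0.25, and with a pseudocount of 1 Glyatl3 stood at -0.30 instead of -0.87. In bulk RNA of this kind, fewer cells of a type and less RNA per cell cannot be told apart. The part of feeder RNA in the day 3 and day 9 differences was not tested. The median of all genes tested moved little between genotypes, by 0.13 at day 25 and less on the other days.

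**Figure D2:**
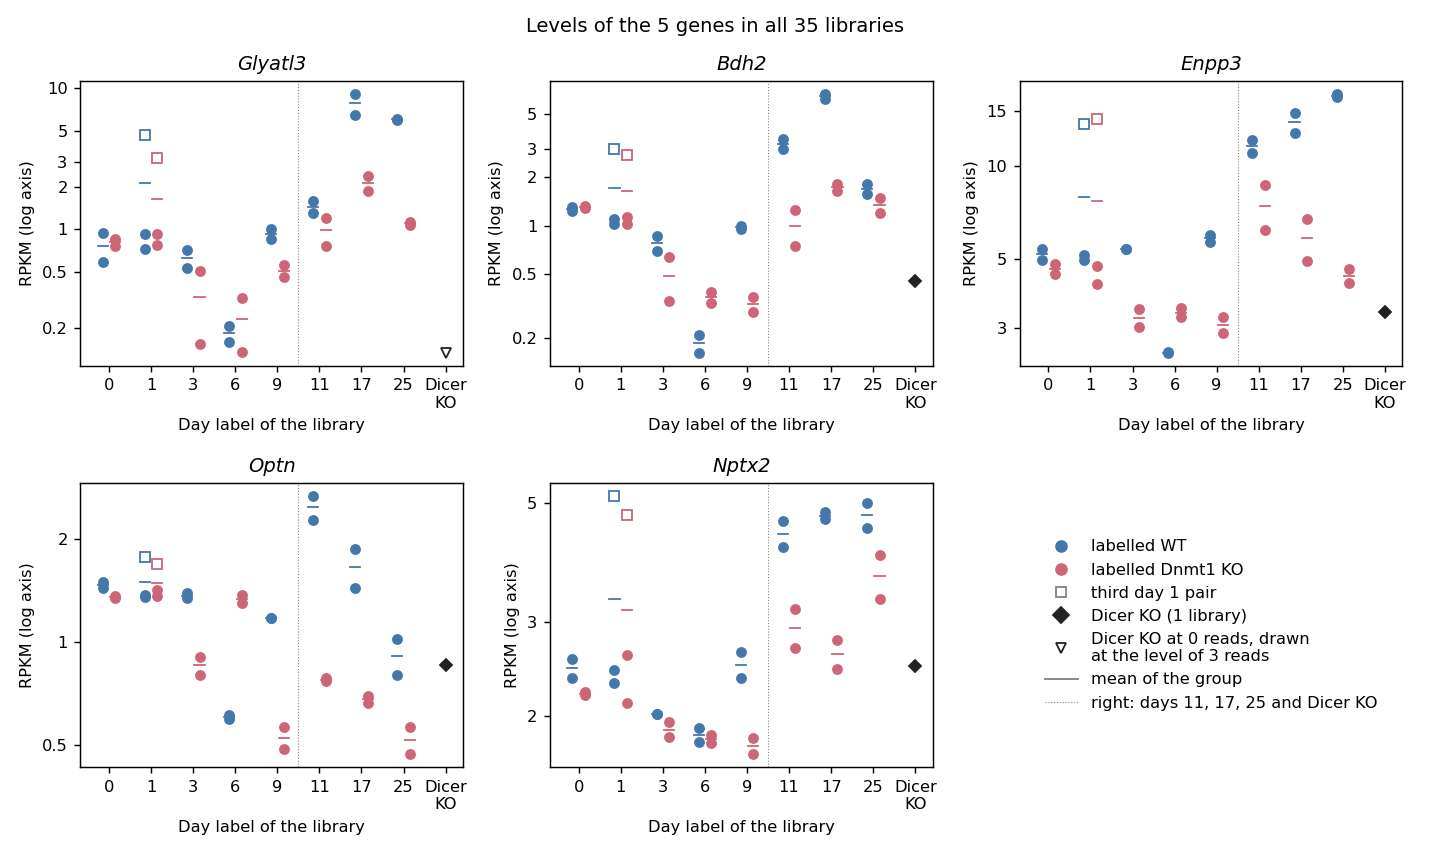
RPKM (log axis) of each gene in all 35 libraries by day label, with WT in blue, Dnmt1 KO in red, the third day 1 pair as open squares and Dicer KO in black, and the horizontal bars giving the group means. KO points lie below WT points on days 3, 9, 11, 17 and 25 in every panel, and the day 6 libraries labelled KO lie above those labelled WT for Bdh2, Enpp3 and Optn; Dicer KO had 0 reads of Glyatl3 and is drawn at the level of 3 reads.

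Glyatl3 (ENSMUSG00000091043.1, NCBIM37 chr17:41041690-41051299, minus strand, 873 bases of exon) was a gene of low level in the libraries of lower gene-read share. In the set of higher share its WT means were 1.44, 7.79 and 6.03 RPKM on days 11, 17 and 25. The third day 1 WT library, of the same set, read 4.68 RPKM. At day 0 Glyatl3 read 0.939 and 0.587 RPKM in the WT libraries and 0.760 and 0.858 RPKM in the KO libraries, which overlapped. At day 1 the first 2 pairs gave 0.920 and 0.721 RPKM in WT and 0.924 and 0.776 RPKM in KO, whereas the third pair gave 4.68 and 3.2 RPKM, 5.71 and 3.77 times the mean of the others. No other of the 5 genes differed as much between day 1 pairs.

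On days 3, 9, 11, 17 and 25 the genotypes of Glyatl3 did not overlap. Day 3 gave 0.716 and 0.527 RPKM in WT and 0.154 and 0.506 RPKM in KO, so that the second KO library lay just under the lower WT library. At day 9 the values were 1.00 and 0.848 RPKM in WT and 0.558 and 0.459 RPKM in KO. At day 11 they were 1.3 and 1.58 against 0.765 and 1.21 RPKM. The widest gaps came last. Day 17 had 9.09 and 6.49 RPKM in WT against 2.37 and 1.87 RPKM in KO, and day 25 had 5.99 and 6.08 against 1.08 and 1.12 RPKM, so that KO held 27.2% and 18.2% of the WT mean. The log2 differences were -0.87, -0.75, -0.53, -1.82 and -2.35 from day 3 to day 25, each with an SE of 0.61 from the shared fit. That SE was 0.31 without the third day 1 pair, and the SEs of all 5 genes were larger with that pair. Among days 11, 17 and 25 the order of the group means was WT day 17, WT day 25, KO day 17, WT day 11, KO day 25 and KO day 11, of which only the last 2 overlapped. Counts behind these values were small, between 3 and 235 reads per library.

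Bdh2 (ENSMUSG00000028167.9, NCBIM37 chr3:134944185-134967390, plus strand, 1202 bases of exon) had its deepest KO deficit in the middle of the course. In the 4 day 0 libraries it was level, with 1.23 and 1.31 RPKM in WT and 1.33 and 1.29 RPKM in KO. Day 1 was level as well, with 1.1, 1.02 and 3.0 RPKM in WT and 1.02, 1.13 and 2.76 RPKM in KO. At day 3 it read 0.693 and 0.856 RPKM in WT and 0.337 and 0.635 RPKM in KO. From then the gap between the genotypes was wider on each of the next 3 days measured, leaving day 6 aside. Day 9 gave 0.953 and 0.992 RPKM in WT against 0.290 and 0.357 RPKM in KO. Day 11 gave 3.48 and 3.0 against 1.24 and 0.741 RPKM, and day 17 gave 6.63 and 6.2 against 1.64 and 1.82 RPKM. At day 25 it was the WT libraries that read low, 1.58 and 1.81 RPKM, with 1.48 and 1.19 RPKM in KO, so that KO held 79.0% of the WT mean where it had held 27.0% at day 17. The log2 differences were -0.62, -1.35, -1.65, -1.83 and -0.32 (SE 0.40). The WT libraries of day 25 overlapped the KO libraries of day 17.

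Enpp3 (ENSMUSG00000019989.7, NCBIM37 chr10:24493620-24556001, minus strand, 2815 bases of exon) was the highest of the 5 per length of exon, and over the last 3 days its WT level read higher and its KO level lower from day to day. Day 0 gave 5.39 and 4.97 RPKM in WT and 4.47 and 4.85 RPKM in KO. Day 1 gave 4.98, 5.15 and 13.6 RPKM in WT and 4.75, 4.17 and 14.1 RPKM in KO, where the high values are the third pair. WT then stayed near its starting level at day 3 (5.40 and 5.38 RPKM) and day 9 (5.98 and 5.70 RPKM), while KO read 3.04 and 3.45 RPKM at day 3 and 2.89 and 3.25 RPKM at day 9. KO thus held 60.2% and 52.7% of WT. At day 11 the libraries read 11 and 12.1 RPKM in WT and 6.21 and 8.67 RPKM in KO. Day 17 gave 12.8 and 14.8 against 6.73 and 4.94 RPKM. Day 25 gave 17 and 16.6 against 4.67 and 4.2 RPKM, which put KO at 26.3% of WT. Across these 3 days the WT means ran 11.6, 13.8 and 16.8 RPKM and did not overlap, and the KO means ran 7.44, 5.83 and 4.43 RPKM, of which the first 2 overlapped. The log2 differences were -0.72, -0.91, -0.65, -1.24 and -1.90 (SE 0.41).

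Optn (ENSMUSG00000026672.5, NCBIM37 chr2:4941688-4985097, minus strand, 3753 bases of exon) had its deepest KO deficit at day 11. The row 4930551O13Rik lies inside it on the opposite strand at 0.0315 to 0.634 RPKM, and whether the counting used strand is not stated in the sources used here. Optn at day 0 had 1.44 and 1.5 RPKM in its WT libraries and 1.35 and 1.36 RPKM in its KO libraries. At day 1 it read 1.37, 1.36 and 1.77 RPKM in WT and 1.36, 1.41 and 1.69 RPKM in KO, so the third pair stood 1.3 and 1.22 times above the others, less than the 2.07 times of the median gene. Day 3 gave 1.39 and 1.34 RPKM against 0.906 and 0.802 RPKM. Day 9 gave 1.18 and 1.17 against 0.563 and 0.488 RPKM, and day 11 gave 2.27 and 2.68 against 0.771 and 0.783 RPKM. KO held 31.4% of WT at day 11. After it the WT level read lower at each later day, 1.44 and 1.87 RPKM at day 17 and 0.798 and 1.02 RPKM at day 25, against 0.698 and 0.662 RPKM and 0.564 and 0.469 RPKM in KO. The 6 group means of those 3 days did not overlap with their neighbours in the order. The log2 differences from day 3 to day 25 were -0.62, -1.03, -1.55, -1.16 and -0.71 (SE 0.16).

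Nptx2 (ENSMUSG00000059991.6, NCBIM37 chr5:145306756-145318347, plus strand, 2551 bases of exon) had a mean difference over the 5 days of -0.47, the smallest of the 5 genes. At day 0 it read 2.56 and 2.35 RPKM in WT and 2.22 and 2.19 RPKM in KO. At day 1 it read 2.44, 2.30 and 5.16 RPKM in WT and 2.12, 2.60 and 4.73 RPKM in KO. At day 3 it read 2.02 in both WT libraries against 1.95 and 1.83 RPKM in KO. The day 3 groups did not overlap, but KO held 93.5% of WT, closer to WT than at day 0 (89.7%). Day 9 was the first day with a wider gap than day 0, at 2.36 and 2.63 RPKM in WT and 1.82 and 1.69 RPKM in KO. Day 11 gave 4.62 and 4.13 against 3.17 and 2.68 RPKM, and day 17, the widest, gave 4.80 and 4.65 against 2.45 and 2.77 RPKM. Day 25 gave 4.99 and 4.49 against 3.99 and 3.30 RPKM. WT was nearly level over days 11, 17 and 25, with group means between 4.38 and 4.74 RPKM. The log2 differences were -0.09, -0.48, -0.57, -0.84 and -0.37 (SE 0.29).

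**Figure D3:**
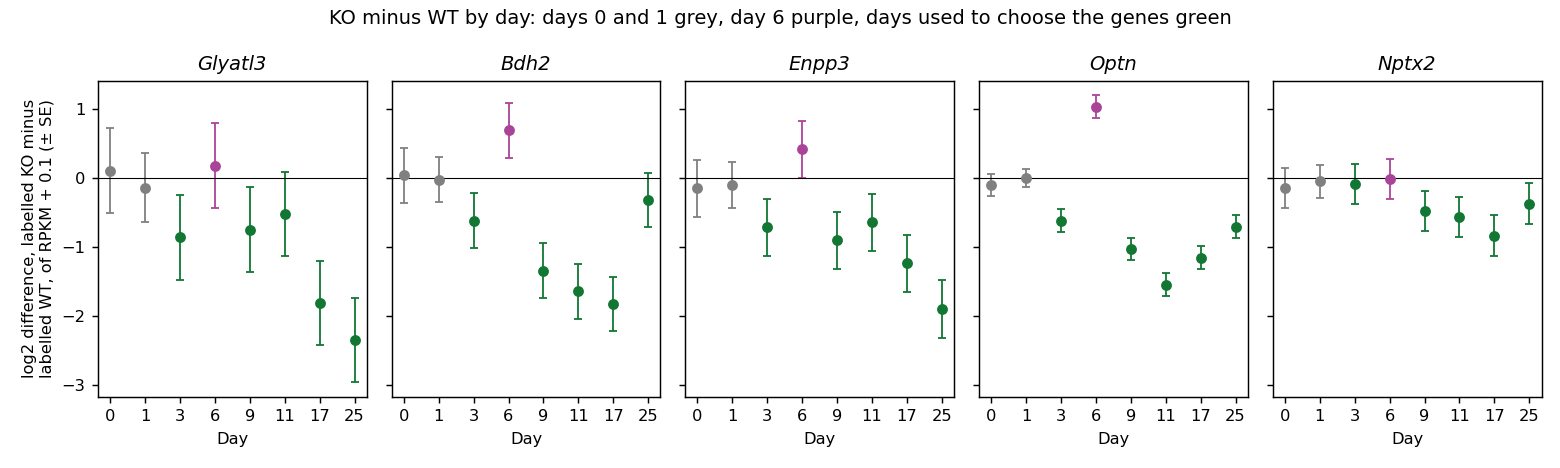
Log2 difference of RPKM + 0.1, libraries labelled KO minus libraries labelled WT, for each gene and day, with bars of 1 SE from the fit over 34 libraries. Differences sit near 0 at days 0 and 1 in grey, are below 0 on the 5 green days that chose the genes (day 6 entered the choice of Nptx2 as well), and are above 0 at day 6 in purple for Optn, Bdh2, Enpp3 and Glyatl3, by 1.03, 0.69, 0.41 and 0.17.

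Day 6 had not been used to choose Glyatl3, Bdh2, Enpp3 and Optn, and was tested for these 4. Optn read 0.611 and 0.595 RPKM in the libraries labelled WT and 1.3 and 1.37 RPKM in those labelled KO, which was 2.22 times as much. On the log2 scale it was 1.03 higher (SE 0.16, limma adjusted p = 0.000312), in the opposite direction to the days around it, and 0.68% of genes were called higher at this day. Bdh2 read 0.161 and 0.208 RPKM in the libraries labelled WT and 0.328 and 0.387 RPKM in those labelled KO. Enpp3 read 2.50 and 2.51 against 3.25 and 3.48 RPKM. For Optn, Bdh2 and Enpp3 both libraries labelled KO were above both labelled WT, as for 28.4% of genes. Of these 3 genes, only Optn passed the test with all 34 libraries (Bdh2 0.69, SE 0.40, adjusted p = 0.68; Enpp3 0.41, SE 0.41, adjusted p = 1). With the third day 1 pair left out of the fit, Bdh2 and Enpp3 passed as well (limma adjusted p = 0.0134 and 0.0232), in a fit that called 8.99% of genes higher. Glyatl3, at 0.158 and 0.207 against 0.136 and 0.328 RPKM, overlapped and passed in neither fit (0.17, SE 0.61, adjusted p = 1 and 0.724). Nptx2 read 1.79 and 1.90 against 1.84 and 1.78 RPKM.

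The libraries with low Dnmt1 RNA were thus those with low Optn, Bdh2 and Enpp3 at day 6 too, although they are the ones labelled WT. Whether the labels of that day were exchanged cannot be settled from the labels. In level, Optn of the libraries labelled KO overlapped KO of day 0, and Optn of the libraries labelled WT was at 0.603 RPKM, between KO of day 3 and KO of day 9. Glyatl3 and Bdh2 were low in all 4 day 6 libraries, at no more than 0.328 and 0.387 RPKM, when the WT libraries of days 0, 3 and 9 read at least 0.527 and 0.693 RPKM. Fibroblast markers were lower in the libraries labelled KO at this day (12.8 to 15.5 RPKM in those labelled WT, 7.05 to 7.33 RPKM in those labelled KO, 10 of 11 markers), and so were 7 of 7 primitive endoderm markers; their part in these differences was not tested.

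The size of the KO difference along the course is given as a description, between days of the same set of libraries, since the single-day values had entered the choice of the genes. From day 3 to day 9 the difference moved by -0.72 for Bdh2 (SE 0.56), -0.41 for Optn (SE 0.23), -0.39 for Nptx2 (SE 0.41), -0.19 for Enpp3 (SE 0.59) and 0.11 for Glyatl3 (SE 0.87). From day 11 to day 25 it moved by 1.32 for Bdh2, 0.84 for Optn and 0.19 for Nptx2, towards WT, and by -1.25 for Enpp3 and -1.83 for Glyatl3, away from WT, with the same errors. Between days 11 and 25 the WT means of Bdh2 and Optn were lower at the later day and those of Enpp3 and Glyatl3 were higher.

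In the Dicer KO library Glyatl3, Bdh2 and Enpp3 read far below WT of days 11, 17 and 25, which are of the same set of gene-read share, and Nptx2 and Optn were closer to WT. The WT library of the third day 1 pair is of that set too but was not part of this reference. Dicer KO is 1 library of 1 line, so no test was made. Glyatl3 had 0 reads, with a floor of 3 reads at 0.133 RPKM, which puts it at least 38.2-fold lower than the mean of the 6 WT libraries (5.09 RPKM, range 1.3 to 9.09 RPKM). Bdh2 read 0.452 RPKM (14 reads) against 1.58 to 6.63 RPKM in WT, a log2 difference of -2.62, and Enpp3 read 3.38 RPKM against 11 to 17 RPKM, a log2 difference of -2.01. For comparison, 9.07% of genes were more than 1 log2 unit below WT. Nptx2 read 2.48 RPKM against 4.13 to 4.99 RPKM (-0.87), so that the WT mean was 1.86 times its level. The WT library of the third day 1 pair read 5.16 RPKM. Over all days 9 of 17 WT libraries were above Dicer KO, but that count mixes the sets of lower and higher gene-read share, so nothing is read from it. Optn read 0.858 RPKM, within the WT range of 0.798 to 2.68 RPKM, with 5 of 6 WT libraries above it and the WT mean at 1.96 times its level (-0.78). The other 4 genes were below every one of these WT libraries, as were 27.4% of all genes.

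Against the Dnmt1 KO libraries of the same 3 days, Glyatl3, Bdh2 and Enpp3 were lower in Dicer KO than the lowest of the 6 (0.765, 0.741 and 4.2 RPKM), Optn was above the highest (0.783 RPKM) and Nptx2 lay within their range (2.45 to 3.99 RPKM). Dnmt1 RNA itself read 34.8 RPKM in Dicer KO. Dicer1 read 4.01 RPKM, within the range of those WT libraries, and RNA over the whole gene does not check a CRISPR lesion. Fibroblast markers summed to 285 RPKM in the Dicer KO library against 1.3 to 3.02 RPKM in the WT libraries, with 11 of 11 markers above all 6. Most of that sum was S100a4, at 245 RPKM, and the other markers read between 0.0748 (Lum) and 9.05 RPKM (Fbn1). The part of fibroblast RNA in the differences was not tested. ESC markers summed to 1303 RPKM, against 1011 to 1899 RPKM, and Dppa5a alone made 715 RPKM of the Dicer KO sum. Of the 10 ESC markers, 3 read below all 6 WT libraries and 0 above. These were Pou5f1 (128 RPKM against 161 to 260 RPKM), Tdgf1 (231 against 278 to 445 RPKM) and Utf1 (7.14 against 25.3 to 39.8 RPKM).

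The families and pathways of the 5 genes were counted next. Each list was drawn up from textbook roles and is counted without the 5 genes, on the mean KO minus WT difference over days 3, 9, 11, 17 and 25, with limma adjusted p values over all genes. Over all 11615 genes, 13.2% were called higher and 5.75% lower, with a median of 0.06. Without the third day 1 pair these shares were 37.8% higher and 20.7% lower. Among selective autophagy receptors and partners of optineurin, 20 of 20 genes were tested, 5 rose and 1 fell, with a median of 0.18 (11 and 2 without the third pair). The largest rise was that of Calcoco2, the receptor NDP52, by 2.15 (SE 0.25, adjusted p = 1.06e-06), and Sqstm1, the receptor p62, rose by 0.76 (SE 0.06, adjusted p = 4.5e-09). The ubiquitin-like proteins Gabarap and Gabarapl2 rose by 0.36 and 0.65 and the initiation factor Rb1cc1 by 0.39, whereas Gabarapl1 fell by 0.28. Optn itself stood at -1.01, and the kinase gene Tbk1 at 0.04 (adjusted p = 0.917).

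Of the ecto-nucleotidase genes, 7 of 15 were tested. Enpp2, which encodes autotaxin, the enzyme that makes lysophosphatidic acid, fell by 1.67 (SE 0.14, adjusted p = 3.24e-09), and Entpd4, which encodes a nucleotide diphosphatase of the Golgi, rose by 0.21 (adjusted p = 0.0226). The median of this list was -0.17, and without the third pair 1 rose and 3 fell. In ketone body metabolism, 7 of 11 genes were tested and Aacs, the cytosolic acetoacetyl-CoA synthetase, rose by 0.40 (adjusted p = 0.0216), and without the third pair 2 rose and 0 fell. Bdh1, the mitochondrial enzyme for the same substrate, stood at -0.12 (adjusted p = 0.417), and the median was 0.01. The other 3 glycine N-acyltransferases (Glyat, Keg1 and Gm4952) reached at most 0.0281 RPKM in any library and were not tested. Among pentraxins and AMPA receptor subunits, 1 of 9 genes was tested, the receptor Nptxr, at 0.13 (adjusted p = 0.588).

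Along the chromosome, 2 of the 10 neighbours that could be tested fell and none rose, where 5.75% of all genes were called lower and 13.2% higher. The 2 nearest rows on each side of each gene were taken, 20 in all, of which 10 were too low to test. The neighbour of Glyatl3 at 24.2 kb, 9130008F23Rik, fell by 0.73 (SE 0.13, limma adjusted p = 0.000176). Mcm10, a DNA replication factor gene 7.85 kb from Optn, fell by 0.41 (SE 0.10, limma adjusted p = 0.00319). On the other side of Glyatl3, Cenpq at 8.70 kb stood at -0.02 (adjusted p = 0.962) and Mut at 20.4 kb at -0.11 (adjusted p = 0.619). Cenpe, 7.68 kb from Bdh2, stood at -0.04 and Med23, 33.8 kb from Enpp3, at -0.12 (adjusted p = 0.907 and 0.643). Trrap, 211 kb from Nptx2, stood at -0.42 (SE 0.16, adjusted p = 0.0639). With the third day 1 pair left out, 6 of the 10 neighbours were below the threshold on the lower side and 1 on the higher side, beside the shares of all genes given above for that fit.

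**Figure D4:**
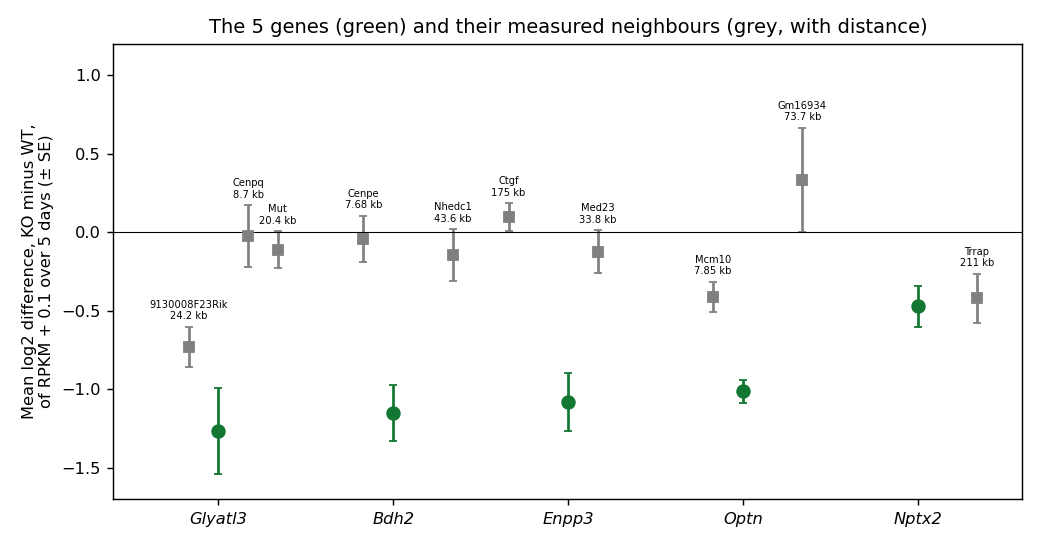
Mean log2 difference of RPKM + 0.1, KO minus WT, over days 3, 9, 11, 17 and 25 with bars of 1 SE, for the 5 genes (green circles) and those of their 4 nearest rows that could be tested (grey squares, named with their distance in kb). Of the neighbours, 9130008F23Rik beside Glyatl3 and Mcm10 beside Optn passed the test, at -0.73 and -0.41.

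The genes whose levels followed each of the 5 most closely were taken by Pearson r of log2 values over 34 libraries, after centring on the mean of the libraries of the same day, so that r reflects the genotype difference and the replicate spread. The points share days and library sets, and the genes had been chosen for a like pattern, so r is a description. Among the genes that followed Glyatl3 most closely were Enpp3 (0.91) and Gm98 (0.89), and Bdh2 was followed by Acot1 (0.94), Sfxn1 (0.93) and Slc1a3 (0.93). Enpp3 was followed by Cpsf3 (0.95), Spred1 (0.95) and Sema6a (0.95), Optn by Zfp334 (0.96), Zfp266 (0.95) and Mtap7d3 (0.94), and Nptx2 by Slc1a3 (0.89), Bdh2 (0.87) and Cth (0.86). Between the 5 genes r ranged from 0.63 (Glyatl3 and Bdh2) to 0.91 (Glyatl3 and Enpp3), with Bdh2 and Optn at 0.90. With Dnmt1 it ranged from 0.64 for Nptx2 to 0.84 for Enpp3.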

How the data were processed

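RNA was isolated with TriReagent, treated with DNase and made into ribosomal RNA-depleted total RNA libraries. The submitters' processing notes name Trim Galore 0.3.5, TopHat2 2.0.11 and build NCBIM37, and by the methods the authors quantified genes in SeqMonk and called changed genes with DESeq2 and an intensity filter. The deposited table holds RPKM, which the authors computed per library over exons, in 35 columns, with no further scaling between libraries seen in the values. The methods name log2 RPM, and the test had been laid out for that unit; since RPKM contains zeros, log2(RPKM + 0.1) was used, on which low genes show smaller changes than their RPKM. The table lacks counts. Multiplied by exon length (same build, 99.85% of rows), 99.4% to 99.7% of values under 20 reads came out as whole reads within 0.1, which gave library sizes of 24.3 to 72.1 M reads (M, mega-reads). The floor of a value was set at 3 reads and covers counting error only.

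The test took the 11615 genes that exceeded 1 RPKM in 2 or more of the 34 libraries other than Dicer KO, in 1 model of 16 group means with limma 3.58.1 (trend, R 4.3.3), with Benjamini-Hochberg adjustment and a threshold of 0.05. SEs come from that fit and share 1 estimate of the spread per gene. The labels call the libraries of a group biological replicates and say no more, so p values measure the spread between these libraries. At day 1 that spread includes the difference in level between the library sets, and it enters the SE and p value of every day. Without the third day 1 pair, the SE at day 3 was 0.13 instead of 0.41 for Enpp3 and 0.11 instead of 0.29 for Nptx2. The fit was also run on simulated data in which all libraries of a day started from the same expected level. The day 1 difference between library sets was absent there, so that run cannot vouch for the fit on these data. Differences between days had been laid out as a test and are given without p values for the 5 genes, whose choice had used those days. The deviations of same-numbered WT and KO libraries from their group means correlated at 0.775 to 0.912 for the 3 pairs of day 1. The day 1 means mix the sets of lower and higher gene-read share, so these values cannot show that the numbers mark pairs. Pairs entered only the replicate block, an alternative fit. Promoters came from RefSeq (GRCm38.p6), whose coordinates were not mixed with those of NCBIM37; too few of the genes called had a promoter in that table, so a comparison of CG pairs between called genes and the rest was void and is not given.

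The members and gene lists were chosen with earlier results of these data known. The named genes are the 5 genes, Dnmt1, Dicer1, genes of the lists, the 2 nearest rows on each side, the 3 genes of highest r for each gene, and the genes next in rank under the choice. A gene of highest r for Glyatl3 is not reported here. Alternatives were pseudocounts of 1 and 0.01, no filter, centring on the median, leaving out the third day 1 pair or each library in turn, only the groups compared, the replicate block, limma's voom on recovered reads, day 6 added to the mean and all WT libraries as the reference for Dicer KO. Python 3.11.15, numpy 2.4.6 and pandas 2.3.3 were used. Transposons were not analysed here.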

Additional observations from a re-analysis of the deposited data

Results flagged for a closer look

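Optn, Bdh2 and Enpp3 had both libraries labelled KO above both labelled WT at day 6, by 1.03, 0.69 and 0.41 on the log2 scale, and both below at day 9, by -1.03, -1.35 and -0.91. The difference between these days was not tested. Dnmt1 RNA went against the labels at day 6 in the same libraries, at 3.31 RPKM in those labelled WT and 20.3 RPKM in those labelled KO.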

How the results depend on the processing

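The 25 differences of the 5 genes at days 3, 9, 11, 17 and 25 and their 5 means stayed below 0 under every alternative run, including each library of those days left out. The genes were chosen for values below 0 on those days, and both KO libraries lay below both WT libraries on each. Leaving out 1 library could therefore not turn a sign, and settings that change only the spread keep the same value. Nothing is read from these signs. Under the other settings 333 described values were compared, with Nptx2 at day 6 and the differences between days included. Of these, 289 moved by less than 1 SD between replicates, 42 by more, and 2 turned (Nptx2 at day 6 and Glyatl3 between days 3 and 9). The 289 include all values with no filter, with only the groups compared and with the replicate block. Values without the replicate 3 pair of day 1 are included as well. Such settings cannot move these values, so the 289 do not measure how stable the values are. With all genes as the measure, the count called depended on the setting. For the mean over those days it was 2196 (1528 higher, 668 lower), and it was 4381 with no filter, 4279 after centring (2031 higher, 2248 lower), 6785 without the third day 1 pair, 6158 with only the groups compared, 4236 with voom on recovered reads and 1321 with day 6 as labelled added. For day 6 it was 330 and became 552, 908, 3251, 3708 and 752 under the first 5 of these. For day 25 against day 11 it was 1672 and became 2795, 4095, 6680, 4080 and 3934. For day 9 against day 3 it was 17 and became 35, 331, 1070 and 9 with no filter, without the third pair, with only the groups compared and with voom, and 32 and 5 with pseudocounts of 1 and 0.01. For day 1 it was 1 and became 2 after centring, 33 without the third pair, 0 with only the groups compared (12 at an unadjusted p below 0.05) and 3 with voom. The third day 1 pair enters the spread that the fit estimates for every gene. Leaving out 1 library at a time gave 1835 to 3147 genes for the mean, 143 to 550 for day 6, 768 to 2553 for day 25 against day 11, 9 to 25 for day 9 against day 3, 1 to 3 for day 1 and 0 throughout for day 0.

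Among the tests of the 5 genes, Bdh2 at day 6 passed after centring (0.76, limma adjusted p = 0.0455), and Bdh2 and Enpp3 at day 6 passed without the third pair and with only the groups compared (0.69 and 0.41 in both). Leaving out 1 library at a time gave 0.57 to 0.81 for Bdh2, 0.36 to 0.46 for Enpp3, 1.00 to 1.07 for Optn and -0.26 to 0.60 for Glyatl3 at day 6, and, as values without a test, for day 25 against day 11 -2.13 to -1.53 for Glyatl3, 0.99 to 1.66 for Bdh2, -1.49 to -1.02 for Enpp3, 0.68 to 1.00 for Optn and 0.06 to 0.33 for Nptx2. Signs of values near 0 turned. Without the third pair, day 1 gave 0.050 for Glyatl3, 0.015 for Bdh2 and 0.024 for Optn, centring gave 0.049 for Nptx2 at day 6, and a pseudocount of 1 gave -0.056 for Glyatl3 between days 3 and 9. With single libraries left out, day 1 ranged from -0.74 to 0.65 for Glyatl3, -0.46 to 0.44 for Bdh2, -0.65 to 0.36 for Enpp3, -0.094 to 0.11 for Optn and -0.38 to 0.31 for Nptx2; day 0 ranged from -0.19 to 0.40 for Glyatl3 and -0.0074 to 0.079 for Bdh2, Nptx2 at day 6 from -0.065 to 0.017 and Glyatl3 between days 3 and 9 from -0.51 to 0.74. With all WT libraries as the reference, Dicer KO stood at -1.43 for Bdh2, -1.08 for Enpp3 and -0.28 for Nptx2. That reference mixes the library sets. On it the median of all genes tested stood at 0.63, against 0.05 with WT of days 11, 17 and 25.

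Same-numbered WT and KO libraries of day 1 had r of 0.775 to 0.912 in 3 pairs, but the difference between the library sets enters these values. The other days have 2 pairs each. Whether the replicate numbers mark pairs is therefore not settled by r, and the replicate block takes them as pairs on every day. Of 17 pairs of same-numbered WT and KO libraries, 5 had deviations correlated above 0.1 (range -0.16 to 0.91), and these were the pairs of days 1 and 11. The fit with the replicate block called 6658 genes for the mean, 2890 for day 6, 6383 for day 25 against day 11, 159 for day 9 against day 3 and 2 for day 1. Under the block, Bdh2 and Enpp3 at day 6 (0.69 and 0.41) passed, and at day 1 none of the 5 did, where the SE of Glyatl3 was 0.23 with the block and 0.50 without. With 2 libraries a group and as few as 3 reads of Glyatl3 in a library, small differences were not detectable.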
